A study of Mus musculus with 4 samples.

Results

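Mettl5, Trmt112 and Zcchc4 encode the proteins that place N6-methyladenosine (m6A) in cytosolic ribosomal RNA. The 3 genes were taken by symbol from the peak lists of the series, which name 9949 genes in all. The rule used no measured value, but earlier results of these data were known when the genes were chosen. Of the 3, Trmt112 and Zcchc4 had a peak in every list, and Mettl5 had a peak in none.

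The libraries came from mouse embryonic stem cells of strain C57BL/6N, 2 labelled wild type and 2 labelled Mettl5-/-, all enriched from total RNA with the same m6A antibody (MeRIP-seq). How the knockout was made, and whether its libraries are separate clones or cultures, is not given in the sources used here, so the spread between the libraries of a genotype may be technical. The labels also describe embryoid body and neural differentiation, and no label ties a library to either. Each library has a list of peaks, which are stretches of RNA enriched by the antibody.

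METTL5 methylates an adenosine of 18S ribosomal RNA in the small subunit of the ribosome, and ZCCHC4 does the same in 28S ribosomal RNA of the large subunit. TRMT112 is a small protein without catalytic activity of its own that binds METTL5 and keeps it stable, and it serves several other methyltransferases in the same way. The peaks described here are those the lists assign to the transcripts of these genes, and they do not report on the ribosomal RNA that the enzymes modify.

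The lists held between 10821 and 12699 peaks and named between 7281 and 8338 genes; the list of knockout 1 was the longest and held 238 peaks with an adjusted p-value of 0.05 or more, against 22 to 25 in the others. Of 10 stem cell markers, 6 had peaks in all lists (Sox2, Klf4, Esrrb, Tdgf1, Fgf4 and Pou5f1), while Nanog, Zfp42 and Dppa5a had none in any. Of 7 neural markers 2 (Sox1 and Nes) were in all lists, and of 7 fibroblast markers 3 (Pdgfrb, Fn1 and Vim). For comparison, 57.1% of all genes with a peak in any list were in all lists, and 62.3% of protein-coding symbols were in none. In bulk RNA a peak that is not listed can come from an unmethylated transcript, from little of it, or from few cells that make it, and these cannot be told apart here. Read depth per library is unknown.

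The sequence that could be read lies inside the Trmt112 peak. Trmt112 runs on the plus strand of chromosome 19, and the neighbouring gene Prdx5, which encodes the antioxidant enzyme peroxiredoxin 5, runs away from it on the minus strand, so that the genes overlap by 409 bases at their 5′ ends (RefSeq, GRCm38.p6). The RefSeq promoter window of Prdx5, from 250 bases before to 50 bases after its start (chr19:6910057-6910356), covers 258 of the 412 bases that the Trmt112 peaks of all 4 libraries share. GGAC, the core of the usual m6A consensus, was searched in this window on both strands, together with the fuller form GGACT. The Trmt112 strand held 3 GGAC matches, of which 1 was GGACT, and the Prdx5 strand held 2 GGAC matches and no GGACT. The sites below are the matches in this window with the methylatable adenosine well inside the shared bases. Other forms of the consensus were not searched, so these may not be all the candidate positions within the Trmt112 peak. The other matches on the Trmt112 strand lay at the last shared base or beyond it. Capitals mark the match, and each sequence is written 5′ to 3′ on its own strand.
Trmt112 strand, plus, chr19:6910130-6910158: aaggagaagtgtGGACTccttccggttcc
Prdx5 strand, minus, chr19:6910075-6910103: gaactcttcgccGGACCggaagtggccga
Prdx5 strand, minus, chr19:6910057-6910080: ggccgacttaggGGACCttttggg

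The adenosine of the GGACT match lay 6 bases from the centre of the Trmt112 peak in wild type 1, 50 bases in wild type 2 and 21 bases in each knockout library. The adenosines of the matches on the Prdx5 strand lay 5 to 49 and 28 to 72 bases from the same centres. Such matches are common: of 32851 RefSeq promoter windows of the same length, 26.1% held GGACT on the strand of their gene and 45.5% on either strand, and for GGAC these shares were 65.6% and 87.7%. Neither the antibody peak nor the match shows that a given adenosine carries the mark. The rest of the Trmt112 peak and the Zcchc4 peak were not read, since no genome was used.

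Mettl5, the methyltransferase that the knockout removes, had no peak in wild type 1, wild type 2, knockout 1 or knockout 2. Its older symbol in RefSeq was not listed either. The lists therefore gave no check of the genotype labels. Absence from all lists is common among genes: 62.3% of 21900 protein-coding RefSeq symbols were missing from all 4 lists. The Mettl5 gene lies on the minus strand of chromosome 2 between positions 69871195 and 69886634 and shares 652 bases at its 3′ end with Ssb, which encodes the La protein that binds new RNA polymerase III transcripts. No listed peak of any gene, on either strand, reached into the Mettl5 gene body. The nearest was a coding-sequence peak of Ssb in wild type 1, on the plus strand at positions 69870471 to 69871186, which ended 8 bases short of Mettl5. Its 3 blocks held 331 bases, with a fold enrichment of 1.69 and a log10 p-value of -25.8. The fold, over a background that the lists do not name, and the p-value are the authors' own for each peak, here and throughout.

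Trmt112 had 1 peak in each list, always a single block on the plus strand, and always in the class of the 5′ untranslated region. It covered positions 6909903 to 6910373 in wild type 1, 6909874 to 6910314 in wild type 2, 6909845 to 6910402 in knockout 1 and 6909903 to 6910343 in knockout 2, all on chromosome 19. The widths were 471, 441, 558 and 441 bases in that order. The peak of knockout 1 was the widest, and the starts of the 4 peaks differed by at most 58 bases and their ends by at most 88. The bases common to all 4 libraries made 73.8% of those covered in any. Among 1894 genes with a single one-block peak in every list, the median of this share was 70.7%, so the position of the Trmt112 peak varied about as much as that of other genes. The RefSeq gene is 1331 bases long (6909698 to 6911028), and the peaks began 147 to 205 bases after its start and ended 626 to 714 bases before its end.

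Between 43.3% and 52.8% of the bases of each Trmt112 peak lay within the Prdx5 gene as well. In knockout 1 the list also gave Prdx5 a peak there, in an exon on the minus strand at positions 6909839 to 6910106, with a fold of 71.3 and a strength percentile of 65.6. It shared 262 bases with the Trmt112 peak of that library. In wild type 1, wild type 2 and knockout 2, no Prdx5 peak was listed on the Trmt112 gene or within 1000 bases of it. The part of Prdx5 farther away was not searched. No source used here says that the libraries keep the strand, so enrichment in the overlap cannot be assigned to Trmt112 or Prdx5, and in knockout 1 it is listed for both.

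**Figure D1:**
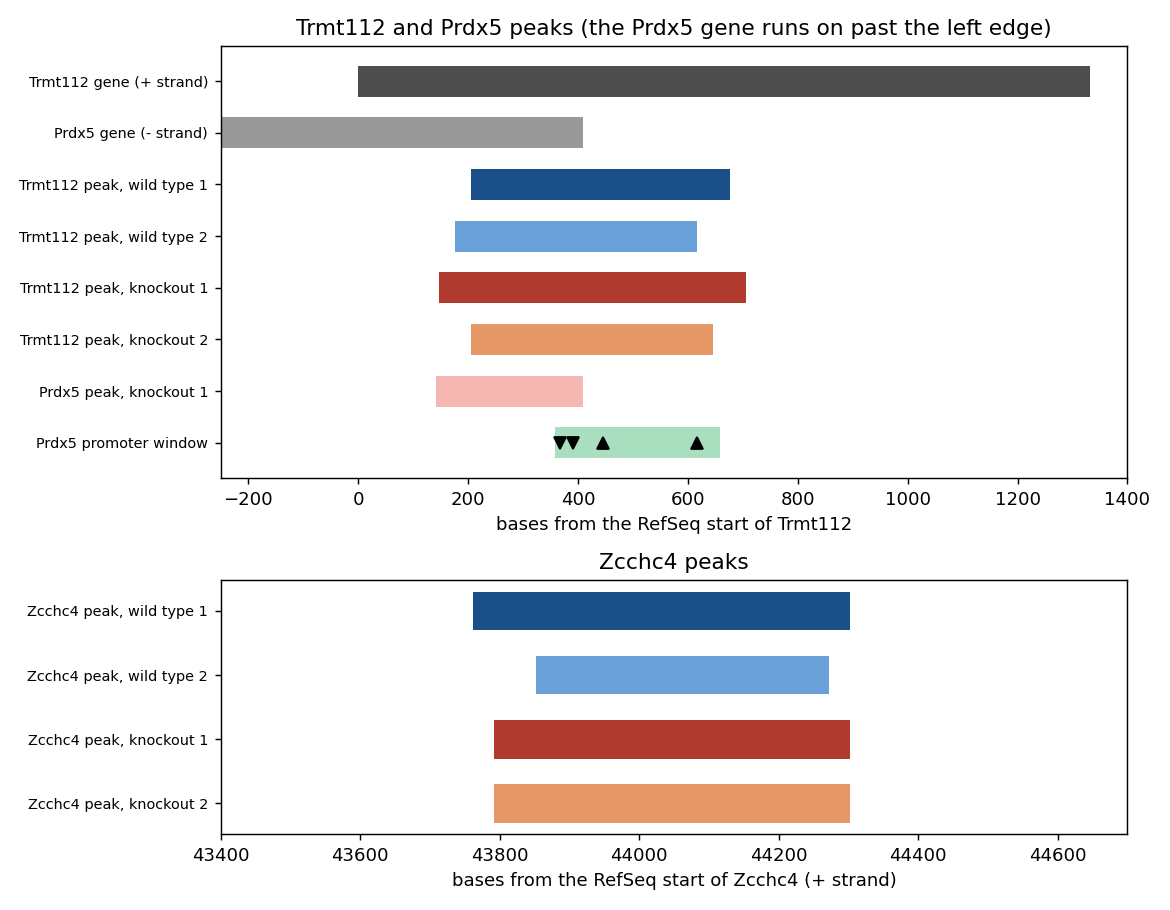
Top, the Trmt112 peak in each library, the Prdx5 peak of knockout 1 and the Prdx5 promoter window as bars, with the RefSeq gene bodies in grey, against distance in bases from the RefSeq start of Trmt112; triangles mark GGAC matches whose adenosine lies in the bases shared by all libraries (upward, Trmt112 strand; downward, Prdx5 strand). Bottom, the Zcchc4 peaks against distance from the RefSeq start of Zcchc4; in both genes the 4 peaks share most of their bases, 73.8% for Trmt112 and 77.8% for Zcchc4.

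Zcchc4, the methyltransferase of the large subunit, likewise had 1 peak in each list, a single block on the plus strand of chromosome 5, in the class of the 3′ untranslated region. It covered positions 52819171 to 52819710 in wild type 1, 52819261 to 52819680 in wild type 2, and 52819201 to 52819710 in each of the knockout libraries. The knockout peaks were identical in extent at 510 bases, and lay between the wild-type peaks of 540 and 420 bases. The shared 420 bases made 77.8% of the bases covered in any library. The peak lay 43762 to 43852 bases into a RefSeq gene of 49258 bases (52775409 to 52824666), and 4956 to 4986 bases before its end. No other RefSeq gene overlapped this one, and no peak of another gene lay in it or within 1000 bases of it.

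Neither transcript followed the genotype: 0 of the 3 genes had a peak in both libraries of a genotype and in neither of the other. Of all 9949 listed genes, 1.56% were found with both wild-type libraries and no knockout library, and 2.27% the other way round. The count of 2 genes present in all lists stands against 57.1% of all listed genes, so presence in every library is the usual outcome for a gene with a peak.

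Strength was expressed as the percentile of the peak's p-value within its own list, where 100 is the strongest. Trmt112 reached 67.3 in wild type 1, 73.2 in wild type 2, 78.6 in knockout 1 and 64.2 in knockout 2. The knockout libraries lay on either side of the wild-type libraries, so the genotypes overlapped. Wild type had a mean of 70.3 ± 4.22 and the knockout a mean of 71.4 ± 10.2 (SD, n = 2 each), a difference of 1.16 that is smaller than the spread within either genotype and changes sign without wild type 1 (-1.82) or without knockout 1 (-6.04). Zcchc4 reached 68.8 in wild type 1, 63.2 in wild type 2, 66.8 in knockout 1 and 61.8 in knockout 2. Its genotypes overlapped too, with means of 66.0 ± 3.98 and 64.3 ± 3.56 (SD, n = 2 each), and the difference of -1.73 turned positive without wild type 1 (1.08) or without knockout 2 (0.791). With 2 libraries a genotype, a two-sided exact permutation test cannot return a p below 0.333, and no test was run. Ranks come from lists of different lengths and do not show a change in methylation.

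Both transcripts sat above the middle of their lists. The best peak of the median gene stood at 59.1 to 59.9 in the 4 lists, below Trmt112 and Zcchc4 in each. Among the 5683 genes in all lists, the mean percentile over the libraries had a median of 66.4. That median was below Trmt112 (70.8) but slightly above Zcchc4 (65.2). Against the best peaks of all genes, Trmt112 stood at percentiles of 55.3 to 71.3 and Zcchc4 at 52.7 to 60.0. Within its transcript class, the Trmt112 peak ranked higher, at 75.5 to 87.6 among the 466 to 620 peaks of the 5′ untranslated region. The Zcchc4 peak ranked at 64.5 to 71.3 among the 4135 to 4911 peaks of the 3′ untranslated region. Trmt112 ranked above Zcchc4 in wild type 2, knockout 1 and knockout 2, and slightly below it in wild type 1.

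Ranking by the authors' fold gave another picture. The Trmt112 peak had a fold of 40.5 in wild type 1, 51.6 in wild type 2, 190 in knockout 1 and 54.2 in knockout 2, where the median peak of a list had 19.2 to 26.6. These folds stood at percentiles of 61.0, 62.8, 86.4 and 66.2 in the same order, so both knockout libraries were above both wild-type libraries. Knockout 1 carried most of this: the difference of 14.4 between the genotype means became 4.31 without it, and 24.5 without knockout 2. Knockout 1 also lists the Prdx5 peak on the other strand, and whether that bears on the fold was not tested. Of 5683 genes in all lists, 18.3% had the fold percentiles of both knockout libraries above those of both wild-type libraries.

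The Zcchc4 peak had a fold of 110 in wild type 1, 98.4 in wild type 2, 40.9 in knockout 1 and 51.5 in knockout 2. Its fold percentiles were 77.1, 73.7, 64.7 and 65.3, and here both knockout libraries were below both wild-type libraries, the opposite of Trmt112. Wild type had a mean of 75.4 ± 2.37 and the knockout a mean of 65.0 ± 0.356 (SD, n = 2 each). The difference of -10.4 ranged from -12.1 to -8.72 when each library was left out, and was -12.1 in lists of equal length. This arrangement was found for 14.0% of the 5683 genes, and for 16.6% of 5522 genes in lists of equal length, so it is not rare. By p-value, where 10.3% of genes had it, Zcchc4 did not, and the difference by fold was not tested.

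**Figure D2:**
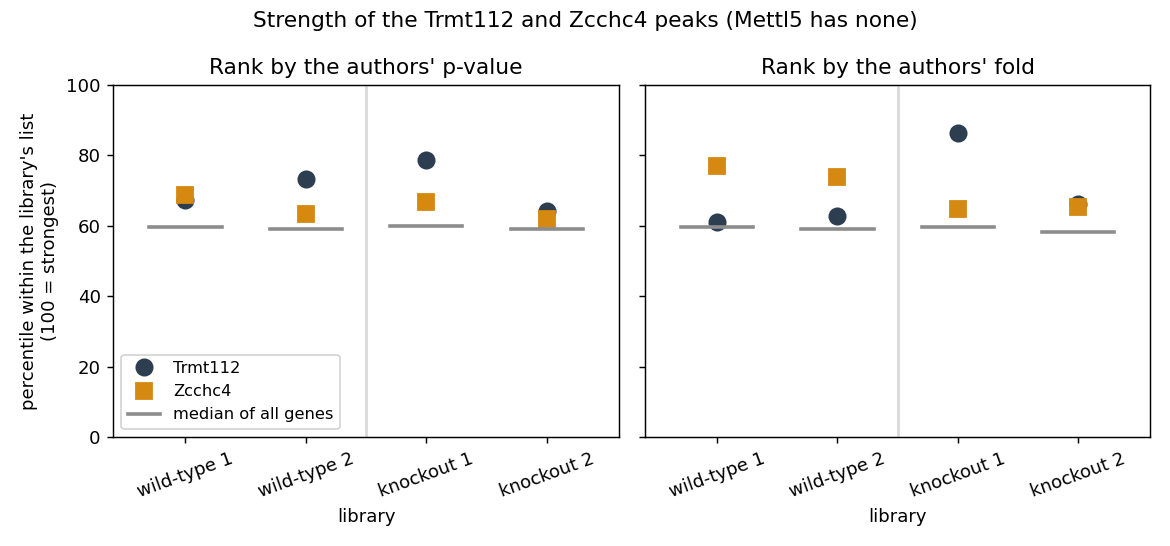
Percentile of the Trmt112 (circles) and Zcchc4 (squares) peak within each library's list, by p-value on the left and by fold on the right; grey bars give the median over the best peaks of all genes in that list. By p-value the genotypes overlap for both genes, while by fold the wild-type libraries are lower for Trmt112 (61.0 and 62.8) and higher for Zcchc4 (77.1 and 73.7) than the knockout libraries.

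The genes whose best peak was most like that of a gene described here were found by the largest difference in percentile over the 4 lists. For Trmt112 they were Smad6 (largest difference 2.63), Synj1 (2.68) and Ankzf1 (2.84). For Zcchc4 they were Cops5 (1.76), Fchsd2 (1.84) and Rmnd1 (1.84). The closeness covers 4 values per gene. Mettl5, with no peak, has no such neighbours.

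TRMT112 also binds other methyltransferases. Of 6 such genes, 3 had a peak in some list, 2 of them in all lists, and 3 were in no list, beside the 62.3% of protein-coding symbols in none. Bud23, which methylates a guanosine of 18S ribosomal RNA, ranked above Trmt112 in every library, at percentiles of 76.9, 77.3, 83.9 and 71.9 (wild type 1 and 2, knockout 1 and 2). Thumpd2 had weak peaks at 23.7, 18.8, 24.2 and 0.878. Alkbh8, which modifies the wobble uridine of transfer RNA, was listed in wild type 2 at 5.80 and in knockout 2 at 64.0, in different parts of the gene; it is named here after its values were seen. Trmt11, N6amt1 and Thumpd3 had no peak in any list.

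Of 16 other genes of ribosomal RNA modification, 12 had a peak in some list, 9 of them in all lists (57.1% over all listed genes), and 0 followed the genotype. The remaining 4 were in no list, where 62.3% of protein-coding symbols were in none. No test was run on these counts. The strongest was Ftsj3, a methyltransferase that acts in ribosome assembly, with a mean percentile of 98.7 ± 0.433 over the libraries (SD, n = 4). The weakest of those in all lists was Snu13, a protein of the box C/D guide RNA particles, at 52.3 ± 13.9. The median over these 9 genes was 74.7, where the same mean was 70.8 for Trmt112 and 65.2 for Zcchc4 and had a median of 66.4 over all 5683 genes. Dkc1, the pseudouridine synthase of the H/ACA particles, its partner Nhp2, Dimt1 and Tsr3 had no peak.

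Methyltransferases that place m6A or the related m6Am in other RNAs gave 3 of 5 with a peak and 2 in all lists. Of all genes with a peak in any list, 57.1% were in all lists, and 62.3% of protein-coding symbols were in none. Pcif1, which makes m6Am next to the cap, was the stronger at 77.8 ± 3.78, and Mettl14, the partner of the catalytic Mettl3, the weaker at 36.2 ± 11.0 (SD, n = 4 each). Mettl16, which methylates U6 small nuclear RNA, had a strong peak in wild type 1 (99.4) and in knockout 2 (95.6) at the same place, and none in wild type 2 or knockout 1; it too is named after its values were seen. Mettl3 and Mettl4 had no peak, as Mettl5 had none.

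Among 23 other genes named Mettl, 12 had a peak in some list and 6 in all, from Mettl18, a histidine methyltransferase of a ribosomal protein (91.2 ± 0.402), down to Mettl15 (24.9 ± 17.4; SD, n = 4 each). The shares to set beside these counts are 57.1% of all listed genes in all lists and 62.3% of protein-coding symbols in none. Mettl25 and Mettl26 were listed in both wild-type libraries and in no knockout library. Mettl25 had percentiles of 74.9 and 70.7, in overlapping peaks of the 3′ untranslated region on chromosome 10. Its peak had 3 blocks in wild type 1 and 1 block in wild type 2. Mettl26 had 68.4 and 16.2, in overlapping but unlike peaks on chromosome 17. That of wild type 1 was a coding-sequence peak of 5 blocks with a fold of 106. That of wild type 2 was a single block in the 3′ untranslated region with a fold of 11.1. Mettl21a was listed in wild type 1 alone, at 76.0. No gene of this name was listed in both knockout libraries alone. No test was run on this list, against which the 1.56% of all listed genes given above stands. Mettl11b, Mettl21c, Mettl21e, Mettl22, Mettl23, Mettl24, Mettl6, Mettl7a2, Mettl7a3, Mettl7b and Mettl8 had no peak.

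**Figure D3:**
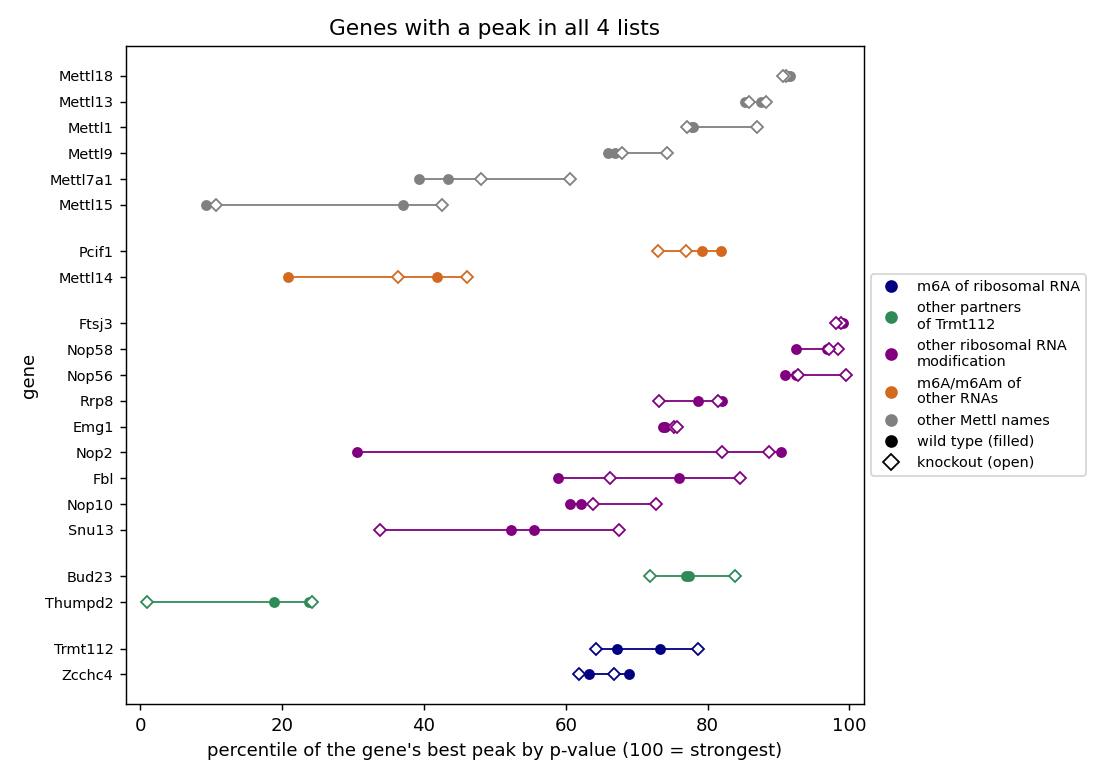
Percentile of the best peak by p-value, on the horizontal axis, for each gene of the 5 lists that had a peak in all 4 libraries; filled circles are wild-type and open diamonds knockout libraries, and colours mark the lists. Trmt112 and Zcchc4, at the bottom, lie between 61.8 and 78.6, below Ftsj3 and Mettl18 and above Thumpd2.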

How the data were processed

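The authors deposited a separate peak list for each of the 4 libraries, and none for pooled samples. Per the file headers, each deposited peak has a p-value, scores that are the log10 of the p-value and of an adjusted p-value, a fold enrichment (a ratio), a span with exon blocks, a class and a gene. Per the submitters' processing notes, HISAT2, HOMER and mm10 were used, in roles not stated; the peak caller and the input were not given in the sources used here.

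Peaks off the reference chromosomes (3 to 6 per list) were left out. Percentiles used mean ranks within a list, with 139 to 200 peaks per list tied at the top for want of a finite log10, and the smallest p-value stood for a gene. Percentiles within a transcript class were instead the share of peaks of the class whose p-value was no smaller, the peak itself included. Overlap was at least 1 bp of exon blocks. RefSeq tables (GRCm38.p6) gave gene bodies and promoter windows. The genes, comparison lists and alternatives were chosen with earlier results of these data known. Genes named were the 3, those in no list or in 1 genotype, the extremes of each list, and the 3 most alike; Alkbh8, Mettl16, Ssb, Fbl, Nop58, Nop56, Nop10 and Nop2 were named after their values were seen; Mettl13 entered by its listed symbol. Ranking and overlap were tested on simulated data. Python 3.11.15, numpy 2.4.6, pandas 2.3.3 and matplotlib 3.10.9 were used. Alternatives were an adjusted p-value under 0.05, the stronger 50% of each list, equal lengths, fold, gene-level ranks, 50% reciprocal overlap, whole spans and leaving out each library; fold at equal length, and fold with each library left out, were added after seeing the data.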

Additional observations from a re-analysis of the deposited data

How the results depend on the processing

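The count of 2 genes in all lists, the count of 0 that follow the genotype, and the overlap of 100% of library pairs for Trmt112 and Zcchc4 were the same under every alternative run on them. The values of the peaks fixed this beforehand, so it adds no support. Both peaks had adjusted p-values far under 0.05, stood in the stronger 50% of each list and had a single block. Leaving out a library cannot remove a presence or an overlap. Of 92 alternative values, 83 stayed within the limits set and 9 moved. The limits were wide: a difference between genotypes stayed if it shifted by less than the pooled SD within genotypes. The changes of sign without a library, and the fall of the Trmt112 fold difference from 14.4 to 4.31, are therefore among the 83. Ranking by fold moved the knockout minus wild-type difference to 14.4 for Trmt112 and -10.4 for Zcchc4, and at equal list length to 15.5 and -12.1; it raised the mean of Zcchc4 from 65.2 to 70.2. Ranking among the best peaks of genes lowered the means to 62.6 and 56.2, as each gene then counts once. The stronger 50% of each list left 1 other partner of Trmt112 and 1 m6A or m6Am methyltransferase in all lists, since weaker peaks were dropped. Leaving out each library gave p-value differences of -6.04 to 8.36 for Trmt112 and -4.54 to 1.08 for Zcchc4, and fold differences of 4.31 to 24.5 and -12.1 to -8.72. For the moves by fold the cause was not tested. Depth is unknown, so it cannot be said which peaks went unlisted for lack of reads.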

Other observations

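Strength by p-value and by fold did not always run together, as these genes of ribosomal RNA modification, named after their values were seen, show. Fbl, the ribose methyltransferase of the box C/D particles, had percentiles of 76.0, 58.8, 84.6 and 66.2 (wild type 1 and 2, knockout 1 and 2) with folds of 2.43, 1.54, 9.08 and 2.66. Nop58, a scaffold of the same particles, had percentiles of 92.5 to 98.5 with folds of 4.07 to 15.7. Nop56, the other scaffold, had folds of 17.0 to 48.1 at percentiles of 90.9 to 99.5, and Nop10, of the H/ACA particles, had folds of 43.6 to 117 at percentiles of 60.6 to 72.7. Zcchc4 had folds of 40.9 to 110 at lower percentiles than Nop58 in every list. Nop2, a methyltransferase of 28S ribosomal RNA, had percentiles of 90.4, 30.5, 82.0 and 88.6 in the same order of libraries. Its folds were 517, 2.57, 3.89 and 53.0, and for this gene both measures ranked the libraries alike. The values are those of the peak with the smallest p-value in each list, and whether these peaks coincide was not examined. RNA levels were not analysed here, and the part of transcript abundance in these values was not tested.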
